A study of Mus musculus with 30 samples.

Results

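The 10 genes described here belong to the tumour necrosis factor (TNF) superfamily or bind the inducible costimulator ICOS, and they were followed through the platelets and peripheral blood mononuclear cells (PBMC) of mice given B16F10 melanoma cells. The 10 genes, of 54532 in the deposited count tables, are the ligands Cd40lg, Tnf, Ltb and Icosl and the receptors Cd40, Cd27, Tnfrsf13b, Tnfrsf13c, Tnfrsf1a and Tnfrsf1b. They were chosen by name, through the Ensembl identifiers of the tables, and all 10 were measured in both tissues and passed the filter on low counts in every comparison.

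Ligands of this superfamily act as trimers, held on a cell surface or shed from it, that gather their receptors and recruit TRAF adaptors, from which the canonical and alternative NF-kB pathways, or for receptors with a death domain cell death, are set off. CD40 ligand, shown by activated T cells and also by activated platelets, engages CD40 on B cells, monocytes and endothelium. CD27 and BAFF receptor (Tnfrsf13c) support the growth and survival of T and B cells, and TACI (Tnfrsf13b) is a further receptor for BAFF. Icosl is no TNF family gene: it is a B7 family protein of B cells and other antigen presenting cells that binds ICOS on T cells.

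All mice were female C57BL/6, aged 6 to 8 weeks by the study's methods, and all received an injection of 100 µl of Hank's balanced salt solution (HBSS). The negative control group (C group) received HBSS alone. The suboptimal inoculation group (S group) received 2000 B16F10 cells per mouse and the optimal inoculation group (O group) 100000, B16F10 being a transplantable melanoma line of the same mouse strain. Blood was taken at day 14, when, per the study, O group had palpable tumours and S group none that could be seen. Each library was made from RNA pooled over several mice, with 5 libraries per group and tissue and 30 in all, so a P value measures the spread between pools, and S group pools can hold mice that would never have formed a tumour. Platelet pools held 3 to 5 mice in O group, 10 in S group and 5 or 10 in C group by the labels, and PBMC pools 3 to 5 in O group, 4 or 5 in S group and 5 in C group.

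Total counts per library ranged from 12259036 to 25360080 in platelets and from 13390983 to 15973449 in PBMC. PBMC S group replicate 3 had a count for 32900 genes, where the median of PBMC libraries was 22253. The 10 most abundant genes held 26.6% to 48.0% of the counts of a platelet library and 6.0% to 30.6% of a PBMC library. Hemoglobin genes took 3.23% to 9.39% of the counts of C group and S group PBMC and 6.52% to 24.5% in O group PBMC. In platelets they took 5.29% to 27.6% in C group, 11.6% to 22.1% in S group and 4.02% to 39% in O group. All 12 platelet markers were higher in the platelet libraries than in PBMC, with a median log2 fold change of 4.43, yet no marker of B cells, T cells, NK cells, monocytes or neutrophils was at 0 in the platelets of any group. The summed level of the 12 B cell markers in platelets was 886 CPM (counts scaled to a common library total) in C group, against 3073 in PBMC of C group, and that of the 12 T cell markers 394 against 1900. Each tissue was scaled on its own, so the size of these gaps depends on that scaling. Levels are CPM after TMM normalization within a tissue, n = 5 libraries per group, and differences are log2 fold changes with their standard errors from edgeR's quasi-likelihood F test. The level of a gene in bulk RNA cannot tell fewer cells of a type from less RNA per cell.

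Oligonucleotides for quantitative PCR of Cd40, Icosl, Cd27 and Tnfrsf1b were part of the study, and they show which stretch of each transcript such an assay reads. They are printed 5′ to 3′ in lower case, and their positions come from a match to GRCm38.
Cd40 forward: ttggagttatggagatgg
Cd40 reverse: atgactgattggagaagaa
Icosl forward: aacttgagtggtctgtatg
Icosl reverse: gacttgtaaggcaggtag
Cd27 forward: gactgactgccgtgagag
Cd27 reverse: caacttacagagaagacagaacc
Tnfrsf1b forward: tccaagcatccttacatc
Tnfrsf1b reverse: tccaacaatcagaccaat
The Cd40 pair lies in coding exons 4 (chr2:165063151-165063168) and 5 (chr2:165063512-165063530), spans 81 bases and matches 3 of 4 coding transcripts. The Icosl pair lies within coding exon 3 (chr10:78071818-78071836 and chr10:78071877-78071894), spans 77 bases and matches both coding transcripts. The Tnfrsf1b forward oligonucleotide lies in exon 6 (chr4:145224311-145224328), its partner crosses from exon 6 to exon 7, and the 91 bases between their outer ends are in the only coding transcript. The Cd27 pair lies in the 3′ untranslated part of exon 6 (chr6:125232761-125232778 and chr6:125232704-125232726), spans 75 bases and matches 1 of 3 coding transcripts. The library counts cover all exons of a gene, and 129 exon bases of Cd27, 5.54% of its 2328, are shared with Mir8113 on the same strand, so a read there cannot be assigned to Cd27 alone.

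A stretch upstream of the start was searched for an NF-kB type motif, because several of these ligands and receptors are known targets of the pathway they set off. Of the 8 genes with a RefSeq promoter of GRCm38.p6, 250 bases before to 50 after the start, Ltb and Icosl each held 1 match. Of 32851 promoters of the same length, 8.46% held at least 1. The 10 matching bases are in capitals and 10 bases on each side are in lower case, both printed on the plus strand.
Ltb, chr17:35194410-35194439: aagggtgttcGGAAAGTCCCcgggcagggg
Icosl, chr10:78069247-78069276: gagcggaggcGGAGCTCCCCgcctccaacc
Both matches are on the strand opposite to the gene, beginning 87 bases upstream of the RefSeq start in Ltb and 111 in Icosl. The gene positions given below begin at 35194439 in Ltb and 78069302 in Icosl, closer to the matches than the RefSeq starts. The match is a description of letters only, and no binding was measured.

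The first comparison asked which of these genes differed in platelets of S group, whose tumours could not be seen, from those of C group. Of the 10, 5 were higher in S group at an unadjusted P under 0.05, the threshold of the study, and none was lower: Cd40lg, Cd40, Icosl, Tnfrsf1b and Cd27. Of all 13268 genes tested, 4.29% were higher and 2.13% lower by the same call. Cd40, Icosl, Tnfrsf1b and Cd27 belong to a panel that the study picked from genes called in S group platelets of these same libraries, in one direction against both C group and O group, so neither their calls nor the count is independent evidence of a direction. By qPCR in a cohort of mice, the study reported all of them as differing between mice with occult tumours and controls. It reported all but Cd27 as differing between mice with occult and with macroscopic tumours. Those qPCR values were not used here. None of the 5 passed the Benjamini-Hochberg adjustment, with adjusted P values of 0.746 to 0.769. Beside each edgeR P stands that of a two-sided exact permutation test over the same libraries, which cannot go below 0.00794 with 5 against 5 and which was under 0.05 for Cd40lg, Cd40 and Icosl. Their fold changes ran from 1.57 for Cd27 to 2.92 for Cd40lg.

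Cd40lg (X:57212143-57224042), the CD40 ligand, read 0.652, 0.428, 0.730, 1.26 and 0.904 CPM in the 5 C group platelet libraries. In S group it read 2.66, 2.73, 1.91, 1.45 and 2.92 CPM. In O group it read 0.807, 0.507, 0.598, 1.87 and 1.25 CPM. Every S group library was above every C group library, as for 0.769% of all genes tested, or 1.24% in either direction, and for none of the other 9, while O group replicate 4 lay within the S group range and the other O group libraries within the C group range. The counts behind these levels were low, 10 to 19 reads in C group and 26 to 56 in S group. S group exceeded C group by 1.55 ± 0.35 (SE) on the log2 scale, P = 0.000577, exact P = 0.00794, with an interval at the level of 0.05 of 0.79 to 2.30. It stayed between 1.37 and 1.78 when each library was left out in turn, with unadjusted P values of 0.000306 to 0.00204.

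Cd40 (2:165055627-165072948), the receptor of that ligand, read 6.05, 4.28, 5.40, 5.50 and 4.71 CPM in C group. The S group libraries read 10.0, 6.43, 7.42, 5.97 and 15.4 CPM. The O group libraries read 6.59, 3.21, 5.91, 2.47 and 6.58 CPM. Replicates 1 and 5 of S group were far above all others, and replicate 4 of S group lay within the C group range. The log2 fold change over C group was 0.79 ± 0.26, P = 0.00771, exact P = 0.0159, and 0.51 without S group replicate 5.

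Icosl (10:78069302-78083913), the ICOS ligand, read 21.3, 9.11, 16.2, 13.3 and 16.6 CPM in C group. In S group it read 23.1, 19.5, 24.3, 17.6 and 45.5 CPM. In O group it read 17.2, 7.83, 15.4, 7.62 and 11.7 CPM. The S group libraries all exceeded the O group libraries, but replicate 1 of C group was above 2 of the S group. Over C group the log2 fold change was 0.76 ± 0.27, P = 0.0133, exact P = 0.0397, and 0.45 without S group replicate 5, whose 45.5 CPM stood apart, and the largest edgeR P over the libraries left out in turn was 0.0483.

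Cd27 (6:125232622-125237010), the receptor for CD70 on T cells and memory B cells, read 12.0, 4.62, 4.87, 7.62 and 7.62 CPM in C group. Its S group values were 11.4, 8.81, 10.2, 8.24 and 19.1 CPM. Its O group values were 7.13, 3.04, 7.70, 4.69 and 3.95 CPM. S group again lay wholly above O group and overlapped C group through replicate 1 of C group. Its log2 fold change over C group was 0.65 ± 0.29, P = 0.0396, exact P = 0.0873. The edgeR call was lost in 6 of 10 fits with a library left out, without C group replicates 2, 3, 4 or 5 or S group replicates 1 or 5, the lowest value being 0.39 without S group replicate 5, and with all 3 groups in one fit.

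Tnfrsf1b (4:145213463-145246870), the TNF receptor without a death domain, read 40.3, 11.8, 20.1, 21.3 and 17.6 CPM in C group. It read 40.1, 25.7, 41.6, 19.2 and 74.9 CPM in S group. It read 37.0, 13.5, 29.8, 7.37 and 13.4 CPM in O group. All 3 groups overlapped, and the highest library was again S group replicate 5. The difference from C group was 0.85 ± 0.35 on the log2 scale, P = 0.0289, exact P = 0.103. The edgeR call was lost in 4 of 10 fits with a library left out, without C group replicates 2, 3 or 5 or S group replicate 5, the lowest value being 0.49 without the last, and with all 3 groups in one fit.

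The other 5 genes did not pass the threshold between S group and C group in platelets. Ltb (17:35194439-35196320), the membrane-bound partner of lymphotoxin alpha, had a log2 fold change of 0.32 ± 0.17, P = 0.0801, exact P = 0.0635. Tnfrsf1a (6:125349362-125362484), the death domain receptor of TNF, had 0.42 ± 0.23, P = 0.0827, exact P = 0.119. Tnf (17:35199381-35202007) had 0.99 ± 0.62, P = 0.135, exact P = 0.0952, at 0 to 27 reads per C group library and 11 to 32 per S group library. The B cell receptors for BAFF had the smallest differences, with −0.12 ± 0.17 for Tnfrsf13b (11:61126755-61149372), exact P = 0.476, and 0.04 ± 0.16 for Tnfrsf13c (15:82221743-82224369), exact P = 0.722. The intervals of these differences at the level of 0.05 were −0.48 to 0.24 and −0.30 to 0.37. With voom Ltb, Tnfrsf1a and Tnf were called, at 0.44, 0.50 and 2.48. In edgeR they were called without C group replicate 3, at 0.42, 0.56 and 1.56, and Tnfrsf1a also without C group replicate 1 or S group replicate 4.

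**Figure D1:**
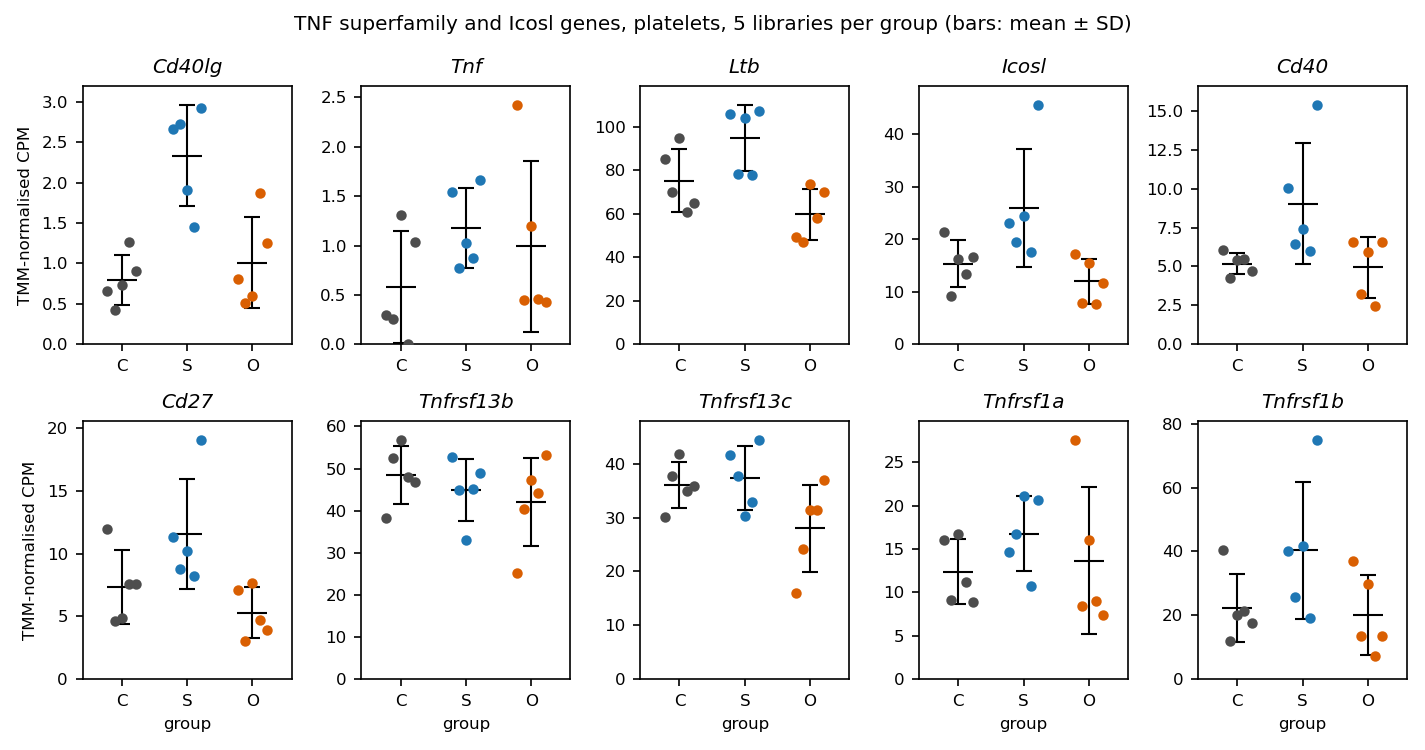
Level of each gene in the platelet libraries, in TMM-normalised CPM on a linear axis from 0, for C group (grey), S group (blue) and O group (orange), with 1 point per library, the horizontal bar at the mean and the error bar the SD (n = 5), cut off at 0 where it would go below. Cd40lg in S group, at 1.45 to 2.92 CPM, lies above all C group libraries, and replicate 5 of S group is the highest point for Icosl, Cd40, Cd27 and Tnfrsf1b.

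The second comparison set S group against O group, whose tumours were palpable. Of the 10, 6 were higher in S group platelets and none lower: Cd27, Icosl, Ltb, Cd40lg, Cd40 and Tnfrsf1b. Over all 13306 genes tested, 7.23% were higher and 6.67% lower. The adjusted P values of the 6 were 0.235 to 0.356, so none passed that adjustment. The same S group libraries enter this comparison and the first one, and the values of both are therefore not independent. The choice of the panel from these libraries bears on this count as well.

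Cd27 was 2.17-fold higher in S group than in O group, with a log2 fold change of 1.12 ± 0.30, P = 0.00312, exact P = 0.00794. Icosl was 2.15-fold higher, 1.11 ± 0.31, P = 0.00363, exact P = 0.00794. Cd40lg was 2.22-fold higher, 1.15 ± 0.39, P = 0.0123, exact P = 0.0159. These calls, and that of Ltb, held in edgeR with each library left out in turn, at unadjusted P values of up to 0.0304.

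Ltb read 85.4, 70.0, 95, 61.0 and 64.9 CPM in C group platelets. It read 106, 78.4, 104, 78.1 and 107 CPM in S group. It read 49.5, 47.2, 73.6, 58.2 and 70.2 CPM in O group. The S group values were all above the O group values, as for Icosl and Cd27, 3 of the 10 genes beside 1.99% of all genes tested, or 3.56% in either direction, and C group lay between and across both. S group exceeded O group by 0.64 ± 0.19 on the log2 scale, P = 0.00614, exact P = 0.00794.

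Cd40 and Tnfrsf1b had log2 fold changes over O group of 0.85 ± 0.35, P = 0.0318, exact P = 0.0635, and 0.99 ± 0.45, P = 0.0470, exact P = 0.0952. Both edgeR calls were lost without S group replicate 5, at 0.60 for Cd40 and 0.66 for Tnfrsf1b, and the same held without S group replicate 1 or O group replicates 2 or 4, Tnfrsf1b losing its call also without S group replicate 3 or O group replicate 5 and, at 0.98, with RLE size factors. Values for the other genes were 0.39 ± 0.23 for Tnfrsf13c, 0.36 ± 0.52 for Tnf, 0.30 ± 0.34 for Tnfrsf1a and 0.07 ± 0.22 for Tnfrsf13b, with exact P values of 0.0714, 0.333, 0.31 and 0.595. Without O group replicate 1 Tnfrsf1a was called by edgeR, at 0.68, Tnf had 0.89 and Tnfrsf13b turned to −0.10. Tnfrsf13c was called without O group replicate 5, at 0.53, and with all 3 groups in one fit, at 0.41.

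Between O group and C group platelets edgeR called 0 of the 10 genes at an unadjusted P under 0.05, and DESeq2 and the exact test also called 0, where edgeR called 2.61% of 13270 genes higher and 2.17% lower. The smallest P values were those of Ltb, with −0.34 ± 0.19, exact P = 0.111, and Tnfrsf13c, with −0.38 ± 0.22, exact P = 0.0952. Cd27 had −0.49 ± 0.32, exact P = 0.19, Icosl −0.38 ± 0.28, exact P = 0.246, and Cd40lg 0.37 ± 0.45, exact P = 0.548.

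**Figure D2:**
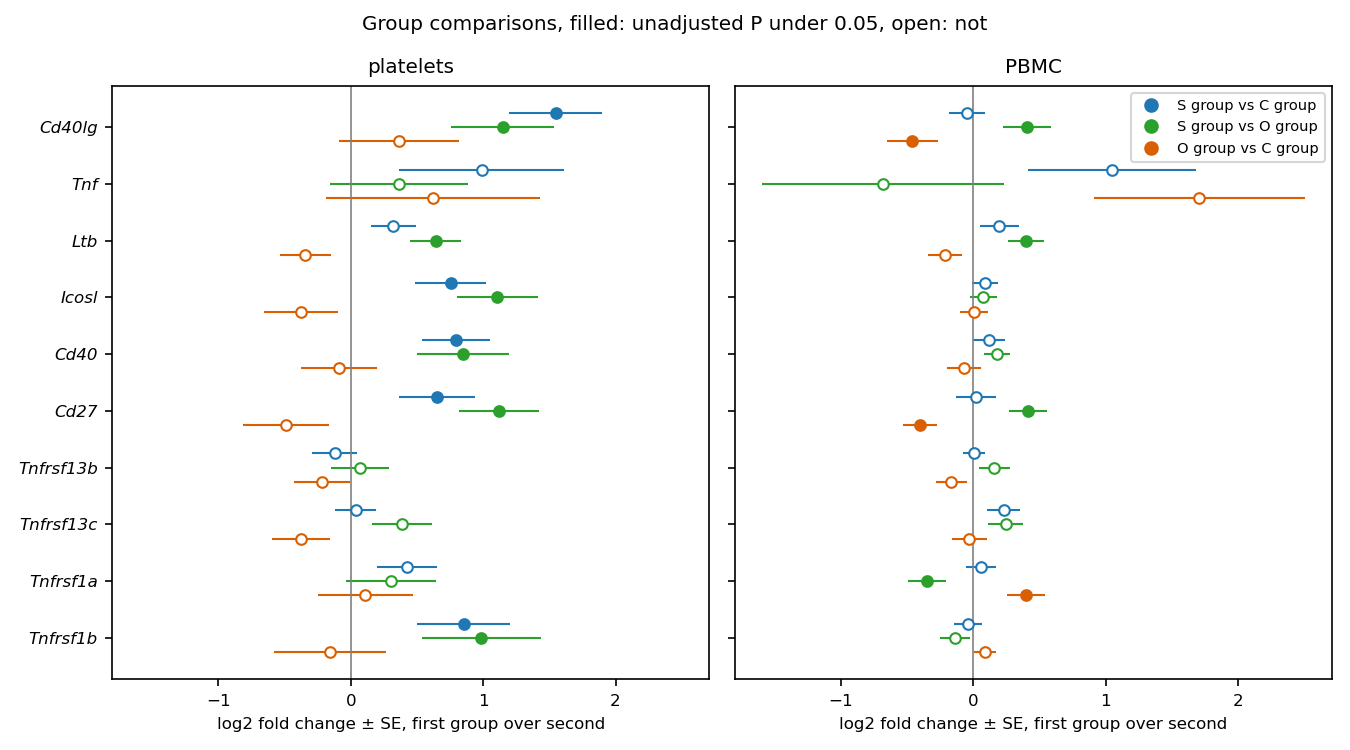
Log2 fold changes with their standard errors for the 10 genes in platelets (left) and PBMC (right), for S group against C group (blue), S group against O group (green) and O group against C group (orange); filled points passed an unadjusted P under 0.05 and open ones did not. Filled points in platelets belong to S group comparisons and lie to the right of 0, 5 against C group and 6 against O group, while in PBMC none of the S group against C group points is filled.

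Some markers of lymphocytes were also higher in S group platelets. In platelets of S group against C group 4 of 12 B cell markers, 5 of 12 T cell markers, 1 of 8 NK cell markers and 0 of 10 monocyte markers were higher at an unadjusted P under 0.05, and none was lower, where 4.29% of all genes were higher. None of 7 erythroid markers tested was called there, with a median log2 fold change of −0.62. Against O group the counts of higher markers were 8, 9, 3 and 4, where 7.23% of all genes were higher, while 5 of 9 neutrophil markers and 1 of 7 erythroid markers tested were lower in S group. The summed B cell markers read 822 to 959 CPM in C group, 827 to 1620 in S group and 455 to 931 in O group. The summed T cell markers read 361 to 419, 415 to 514 and 221 to 430 CPM. Replicate 5 of S group held the 1620 CPM of B cell markers, and replicate 1 of O group held the lowest sums of both lists together with 3678 CPM of neutrophil markers. The part of these cells in the levels of the 10 genes was not tested.

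Each gene was therefore also set against the summed counts of markers of a cell type that is known to express it, in the same library and compared between groups by a two-sided exact permutation test. Cd40lg amounted to 0.503% of the T cell marker sum in S group and 0.203% in C group, a log2 difference of 1.32, exact P = 0.0159. Cd40 amounted to 0.796% of the B cell marker sum against 0.586%, a difference of 0.44, exact P = 0.0159. Tnfrsf1b amounted to 2.31% of the monocyte marker sum against 1.1%, a difference of 0.99, exact P = 0.00794, the smallest the design allows. These 3 ratios kept P under 0.05 with each library left out. Cd40 and Tnfrsf1b belong to the panel picked from these libraries, so their ratios are no independent evidence. The monocyte sum itself was lower on average in the S group platelets, at a mean of 1813 CPM against 2050 for controls. Taken singly, however, the 10 monocyte markers had a median log2 fold change of 0.52 over C group. How far the ratio of Tnfrsf1b, and those of Tnfrsf1a and Tnf below, depend on the use of a sum was not tested.

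The ratios of Icosl to B cell markers, 0.45 higher on the log2 scale, and of Cd27 to T cell markers, 0.43 higher, had exact P values of 0.0556 and 0.206. Tnfrsf1a, Tnf and Ltb differed by 0.62, 1.95 and 0.10, with exact P of 0.0635, 0.111 and 0.54, and the difference of Tnf was 1.16 without C group replicate 4, which had 0 reads of it. For Tnfrsf13b and Tnfrsf13c the ratio to B cell markers was lower in S group by 0.40 and 0.24 (exact P = 0.119 and 0.19).

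Against O group, the ratio of Tnfrsf13b to B cell markers was lower in S group by 0.53, exact P = 0.0159. No other ratio passed 0.05, with 0.82 for Cd40lg, exact P = 0.0873, 0.67 for Cd27, exact P = 0.143, 0.46 for Icosl, exact P = 0.214, and 0.21 for Ltb, exact P = 0.183. The 10 raw P values of each comparison were not adjusted for their number. Without O group replicate 1, the library rich in neutrophil markers, the differences of Icosl, Cd40 and Cd27 were 0.76, 0.51 and 0.95 with exact P of 0.00794, 0.0476 and 0.0238. Without O group replicate 4 that of Cd40lg was 1.07, exact P = 0.0317.

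**Figure D3:**
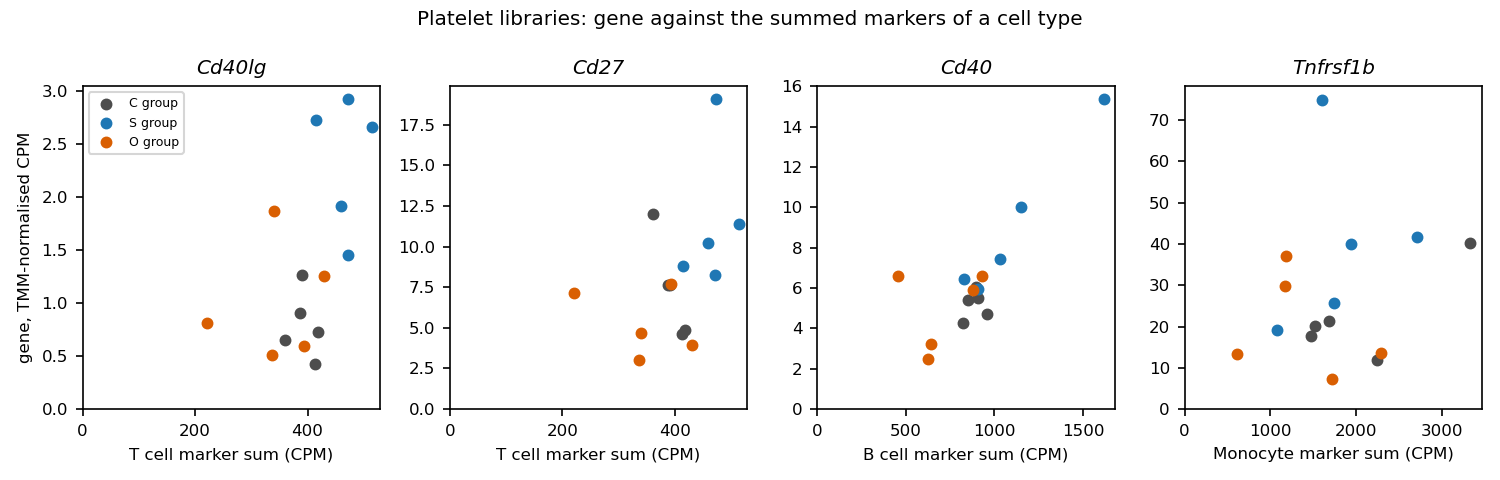
Level of 4 genes (vertical axis, TMM-normalised CPM) against the summed level of the markers of a cell type that is known to express each (horizontal axis, CPM) in the 15 platelet libraries, coloured by group. The S group points for Cd40lg lie above all C group points at T cell marker sums of 415 to 514 CPM, and those for Cd40 rise to 15.4 CPM at a B cell marker sum of 1620 CPM in replicate 5.

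In PBMC of S group against C group edgeR called 0 of the 10 genes at an unadjusted P under 0.05, and DESeq2 and the exact test also called 0, where edgeR called 1.23% of 15139 genes higher and 1.41% lower. Cd40lg, the largest change of S group over C group platelets in the main edgeR fit, read 9.90, 13.4, 12.4, 11.7 and 16.4 CPM in C group PBMC. It read 9.90, 11.4, 13.6, 13.0 and 13.2 CPM in S group. The S group values lay within the C group range, with a log2 fold change of −0.05 ± 0.14, exact P = 0.754. Icosl had 0.09 ± 0.10, Cd40 0.12 ± 0.12, Cd27 0.02 ± 0.15 and Tnfrsf13c 0.23 ± 0.13, with exact P values of 0.46, 0.365, 1 and 0.159, and edgeR called Tnfrsf13c without C group replicates 1 or 3 or S group replicate 3, at 0.28 to 0.29.

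Tnf, the founding cytokine of the family, varied most between PBMC libraries. It read 5.95, 4.75, 12.0, 17.9 and 7.81 CPM in C group. It read 7.17, 7.10, 17.0, 60.8 and 6.25 CPM in S group. It read 5.70, 14.3, 23.1, 110.2 and 5.65 CPM in O group. Replicate 4 was the highest library of each group, the other S group libraries lay within the C group range, and so did the other O group libraries except replicate 3. Its log2 fold change in S group over C group was 1.05 ± 0.63, exact P = 0.508, and −0.03 without S group replicate 4. With the replicate number as a block, which pairs these libraries, edgeR gave 0.65 at an unadjusted P of 0.0322, and Tnf was the only one of the 10 genes called in that fit, where 2.5% of all genes were higher and 1.8% lower. Replicate 4 of S group had 3635 CPM of neutrophil markers and 3051 CPM of monocyte markers, against 402 to 953 and 4773 to 5849 in the other S group libraries, and the part of these cells in the Tnf level was not tested.

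Between S group and O group PBMC, Cd27, Ltb and Cd40lg were higher in S group and Tnfrsf1a was lower, at unadjusted P under 0.05. Of 14686 genes tested, 4.43% were higher and 7.8% lower. Cd27 had a log2 fold change of 0.41 ± 0.14, P = 0.0142, exact P = 0.0159, and Ltb 0.40 ± 0.14, P = 0.0133, exact P = 0.0238. Cd40lg had 0.40 ± 0.18, P = 0.0454, exact P = 0.0556, and Tnfrsf1a −0.35 ± 0.14, P = 0.0329, exact P = 0.0397. The adjusted P values were 0.319 to 0.393. With the replicate number as a block, which pairs these libraries, 4 of the 10 genes were again called, 3 higher and 1 lower. Cd27 and Ltb kept their calls with each library left out, whereas Cd40lg lost its call in 7 of 10 such fits, without S group replicates 2 to 5 or O group replicates 1, 2 or 5, and also with voom. Tnfrsf1a lost its call in 5 of 10, without S group replicates 1, 2 or 5 or O group replicates 1 or 4. Without the libraries numbered 4, Cd27 and Ltb alone were called, and without O group replicate 5 Cd40, Tnfrsf13b and Tnfrsf13c were called as well, at 0.23, 0.27 and 0.31.

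Between O group and C group PBMC, Cd27 and Cd40lg were lower and Tnfrsf1a was higher, with adjusted P values of 0.339 to 0.388. The log2 fold changes were −0.40 ± 0.13 for Cd27, P = 0.00914, exact P = 0.0238, −0.46 ± 0.19 for Cd40lg, P = 0.0356, exact P = 0.0556, and 0.40 ± 0.14 for Tnfrsf1a, P = 0.0189, exact P = 0.0476. Cd40lg lost its call in 5 of 10 fits with a library left out, without C group replicates 2, 3 or 5 or O group replicates 1 or 2, and Tnfrsf1a lost it without O group replicate 4, at 0.29, while Cd27 kept its call in all 10. Ltb was called, lower in O group, without C group replicate 4 or O group replicate 5, and Tnfrsf13b without O group replicate 5. Of 14726 genes tested, 7.56% were higher and 4.39% lower. Cd27 read 91.2, 75.1, 63.2, 59.3 and 76.4 CPM in C group PBMC. It read 101, 68.1, 59.6, 65.1 and 73.5 CPM in S group. It read 57.2, 46.5, 54.1, 53.3 and 64.3 CPM in O group. The O group libraries were below every C group library except in replicate 5.

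Tnfrsf1a read 107, 98.0, 121, 140 and 130 CPM in C group PBMC. It read 107, 112, 144, 138 and 113 CPM in S group. It read 169, 147, 147, 203 and 118 CPM in O group, above all C group libraries except in replicate 5. Tnf had a log2 fold change of O group over C group of 1.71 ± 0.80, P = 0.0559, exact P = 0.349, and 0.34 without O group replicate 4. DESeq2, and edgeR without a filter, called Tnf in that comparison, at 1.72 and 1.68. So did edgeR without C group replicate 4 or O group replicates 1, 2 or 5, at 1.895 to 2.05. The ranges of 0 of the 10 genes were apart between any 2 groups of PBMC, and of all genes tested those of 0.793% were apart for S group and C group, 1.87% for S group and O group and 1.75% for O group and C group.

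The T cell markers of PBMC moved with Cd27, Cd40lg and Ltb. All 12 were lower in O group than in C group at an unadjusted P under 0.05, with a median log2 fold change of −0.36, and all 12 were higher in S group than in O group. The sums read 1617 to 2106 CPM in C group, 1615 to 2238 in S group and 1228 to 1656 in O group. Set against that sum, the ratios of Cd27, Cd40lg and Ltb did not pass the test between S group and O group, and no ratio of the 10 genes in PBMC of S group against C group or O group had an exact P under 0.05, the smallest being 0.0714 for Icosl against O group, with a log2 difference of −0.16. Ratios were not compared between O group and C group. All 7 erythroid markers tested were higher in O group PBMC than in C group, as was 1 of 10 neutrophil markers and 0 of 10 monocyte markers, where 7.56% of all genes were higher. The neutrophil sum read 386 to 2259 CPM in C group and 490 to 7097 in O group, and the monocyte sum 4879 to 6519 and 5304 to 7100 CPM. The part of these cells in the levels of Cd27 and Tnfrsf1a was not tested.

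**Figure D4:**
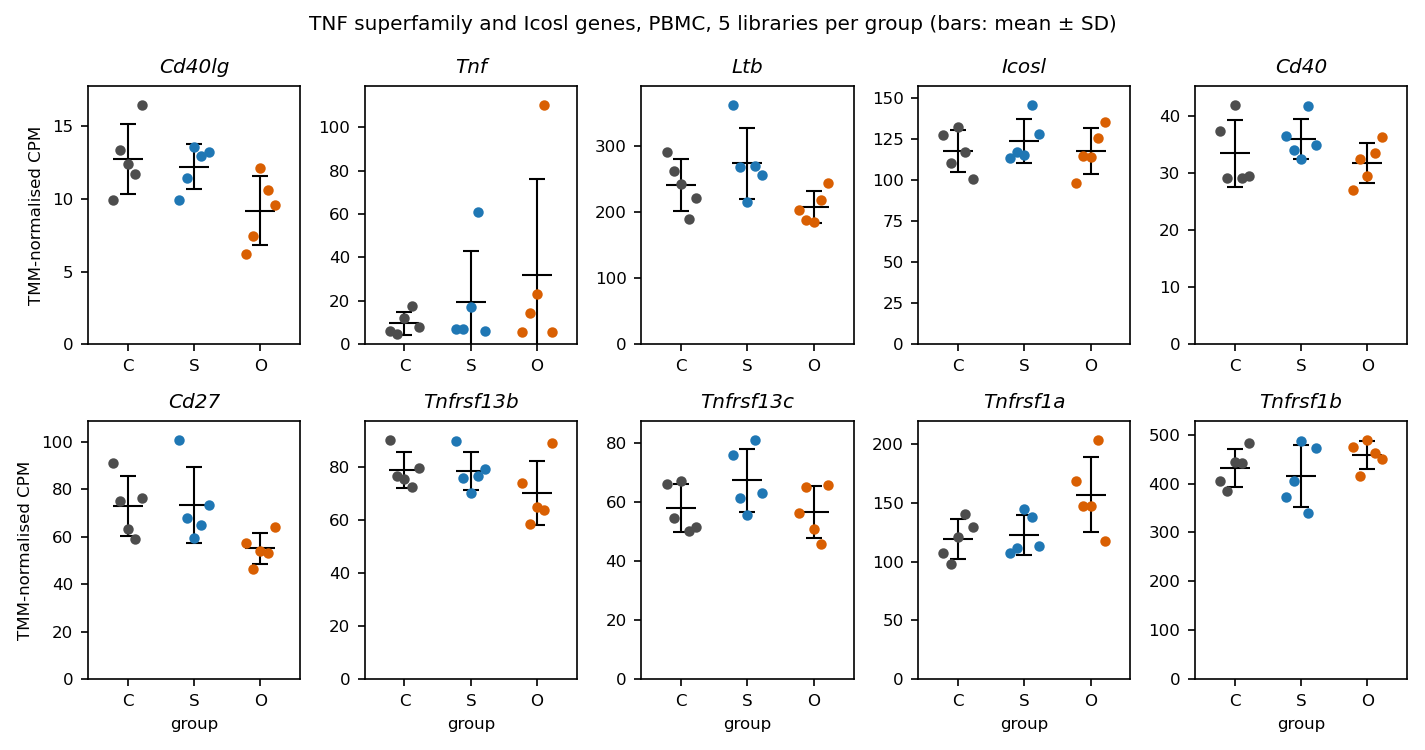
Level of each gene in the PBMC libraries, in TMM-normalised CPM on a linear axis from 0, for C group (grey), S group (blue) and O group (orange), with 1 point per library, the horizontal bar at the mean and the error bar the SD (n = 5), cut off at 0 where it would go below. The groups overlap for all 10 genes, and replicate 4 holds the highest Tnf value of each group, up to 110.2 CPM.

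Whether a gene responded differently in the tissues was tested as the difference of its log2 fold changes, platelets minus PBMC, by edgeR over all 30 libraries. By the protocol PBMC were taken from the same blood as the platelets, so the tissues share mice, and the fit without a block treats the 30 libraries as independent. The deviations of same-numbered platelet and PBMC libraries correlated at r = 0.0631 to 0.609 in O group, whose pools held equal numbers of mice in both tissues, at −0.115 to 0.209 in C group and at −0.0631 to 0.215 in S group. For S group against C group the difference was 1.58 ± 0.40 for Cd40lg, P = 0.000519, 0.63 ± 0.30 for Icosl, P = 0.0419, and 0.63 ± 0.30 for Cd40, P = 0.0463 (n = 30). These 3 of 10 genes stand beside 3.33% of 16498 genes with a higher and 2.05% with a lower difference. Icosl and Cd40, like Cd27 and Tnfrsf1b, belong to the panel picked from these platelet libraries. Neither their differences nor the count is therefore independent evidence. The adjusted P of Cd40lg was 0.460. With the replicate number as a block, Cd40 lost its call, at 0.58, while Cd27, at 0.61, and Tnfrsf1b, at 0.84, were called. With each of the 30 libraries left out in turn, Cd40lg kept a difference of 1.42 to 1.80 with P of at most 0.00168, whereas Icosl lost its call in 11 and Cd40 in 14 of the 30 fits, with 0.36 and 0.38 without platelet S group replicate 5. RLE size factors also ended the call of Icosl, at 0.64.

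For S group against O group the difference was 0.92 ± 0.30 for Icosl, P = 0.0043, and 1.02 ± 0.44 for Tnfrsf1b, P = 0.0288 (n = 30), beside 5.86% of genes higher and 7.75% lower. Icosl and Tnfrsf1b both belong to the panel picked from these platelet libraries, so their differences are no independent evidence. Icosl kept its call in all 30 fits with a library left out, and Tnfrsf1b lost it in 3 of them, without platelet S group replicate 5 or O group replicates 2 or 4. For O group against C group Cd40lg was the only gene called, with 0.99 ± 0.42, P = 0.0242 (n = 30), beside 3.89% and 2.71% of genes, and lost its call in 5 of 30 such fits. No difference passed the Benjamini-Hochberg adjustment.

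The levels of the 10 genes were then set side by side within each tissue, per kilobase of exon so that genes of unequal length can be compared. In platelets Ltb was the most abundant at 50.5 ± 13.0 CPM per kb (SD, n = 15). Tnfrsf13c at 16.5 ± 3.5 and Tnfrsf13b at 15.9 ± 2.9 followed and did not differ beyond their spread. Tnfrsf1b at 7.22 ± 4.52, Tnfrsf1a at 5.51 ± 2.24, Icosl at 3.84 ± 2.00 and Cd27 at 3.46 ± 1.74 CPM per kb overlapped with one another. The least abundant were Cd40 at 1.88 ± 0.90, Cd40lg at 1.10 ± 0.68 and Tnf at 0.56 ± 0.39 CPM per kb, each within the spread of its neighbour.

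In PBMC Ltb was again first at 159 ± 31 CPM per kb, followed by Tnfrsf1b at 114 ± 12 and Tnfrsf1a at 51.3 ± 10.7. Tnfrsf13c, Cd27, Tnfrsf13b and Icosl lay between 25.9 and 29.7 CPM per kb and did not differ beyond their spread. Tnf at 12.4 ± 17.4, Cd40 at 9.90 ± 1.32 and Cd40lg at 9.11 ± 2.05 CPM per kb closed the order. The place of Tnf is uncertain, since its SD exceeds its mean, which includes S group and O group replicate 4, at 60.8 and 110.2 CPM. Tnfrsf1b thus came next to Ltb in PBMC but stood behind both receptors for BAFF in platelets.

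The receptors for BAFF were the genes that stood highest in platelets relative to PBMC. With TMM normalization Tnfrsf13b was higher in platelets by 0.51 ± 0.09 on the log2 scale, adjusted P = 1.25e-05, and Tnfrsf13c by 0.40 ± 0.10, adjusted P = 0.000486, but with library totals and no scaling factors both were lower, at −0.68 and −0.78. That change of scale moved the median of all 14342 genes from −0.12 to −1.34, and relative to that median the genes were higher by 0.63 and 0.52 on the first scale and by 0.66 and 0.56 on the second. The other 8 genes were lower in platelets on both scales. All 10 passed an adjusted P under 0.05 with TMM, beside 36.7% of genes higher and 44.7% lower in platelets. Of the genes at an unadjusted P under 0.05, 45.1% were higher in platelets with TMM and 14.1% with library totals.

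Tnf had −3.18 ± 0.47 in platelets over PBMC, Tnfrsf1b −2.83 ± 0.21 and Tnfrsf1a −1.99 ± 0.14. The order of Tnf and Tnfrsf1b turned with the replicate block, at −2.72 and −2.96, and in C group libraries alone, at −2.78 and −3.04, and the 2 PBMC libraries with the highest Tnf enter the first value. Cd40lg and Cd27 both had −1.89, with SE of 0.20 and 0.15, but in C group libraries alone they had −2.78 and −2.08. Icosl had −1.60 ± 0.14, Cd40 −1.21 ± 0.13 and Ltb −0.43 ± 0.09, the last being 0.30 below the median of all genes, but 0.05 above it when all genes with a count were fitted. The monocyte markers, of which 8 of 10 were lower in platelets, had a median of −2.36, and the part of these cells in the levels of Tnf and its receptors was not tested.

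**Figure D5:**
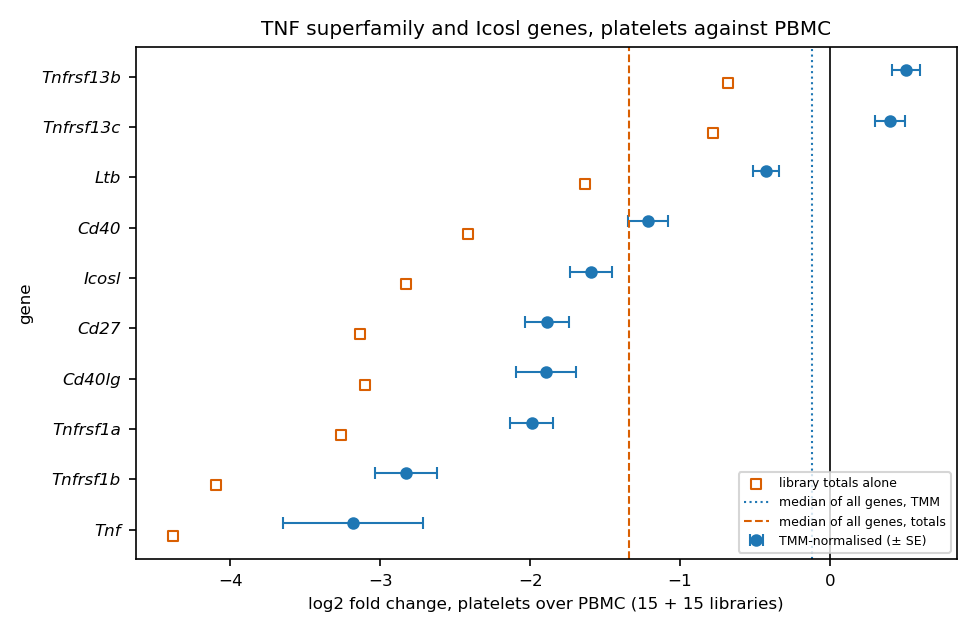
Log2 fold change of each gene in platelets over PBMC across 15 and 15 libraries, as TMM-normalised values with their standard errors (filled circles) and with library totals alone (open squares); the vertical lines mark 0 (solid) and the median of all genes on the TMM scale (dotted) and on the scale of library totals (dashed). Tnfrsf13b and Tnfrsf13c lie to the right of the median of all genes on both scales but to the right of 0 on the TMM scale alone, where they are at 0.51 and 0.40.

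The B cell markers did not move as a body between the tissues. Of 12, 3 were higher in platelets with TMM normalization, Bank1 by 0.47, Vpreb3 by 0.44 and Pax5 by 0.39, and 8 were lower, among them the surface protein Cd22 at −1.45. Each of the 3 rises was smaller than the shift of the median of all genes between the scales. Tnfrsf13b came to 5.25% ± 1.16 of the B cell marker sum in platelets and 2.47% ± 0.38 in PBMC (SD, n = 15), and Tnfrsf13c to 3.85% ± 0.67 and 1.96% ± 0.23. Cd40 and Icosl went the other way, at 0.709% ± 0.251 against 1.09% ± 0.08 and 1.95% ± 0.72 against 3.88% ± 0.35. These shares do not depend on the scaling of a library. Of the T cell genes, Ltb came to 19.1% of the T cell marker sum in platelets and 13.8% in PBMC, Cd27 to 2.02% and 3.82%, and Cd40lg to 0.336% and 0.650%.

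The rest of the pathway was read from lists of 22 further receptors, 15 further ligands, 30 signalling genes and 14 genes of the B7 and CD28 families. In platelets of S group against C group 3 of 15 receptors tested were higher: Ngfr, the nerve growth factor receptor, by 1.63 ± 0.51, Ltbr, the receptor of Ltb, by 0.70 ± 0.29, and Relt by 0.70 ± 0.30. Of all genes 4.29% were higher and 2.13% lower. The median of the 15 was 0.48, against −0.01 for all genes. Ngfr rested on 0.12 to 0.84 CPM in C group and 0.58 to 1.93 in S group. Of the 9 B7 and CD28 family genes tested, the checkpoint gene Vsir was higher by 0.85 ± 0.32. None of the 6 ligands tested was called, and of the 30 signalling genes the TRAF binding protein Tank was called, lower by 0.38 ± 0.14, with a median of −0.04 over the list. These calls are at an unadjusted P under 0.05 by edgeR, the adjusted P values of the genes named were 0.746 to 0.760, and no gene of the lists passed the adjustment in any comparison between groups.

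Against O group, 5 of 14 receptors tested were higher in S group platelets, among them Tnfrsf25, a death receptor of T cells, by 1.56 ± 0.36, Ngfr by 1.83 ± 0.45 and Tnfrsf12a by 1.35 ± 0.50. Icos, the T cell receptor of Icosl, was higher by 1.39 ± 0.41, as were the costimulatory receptor Cd28 by 0.68 ± 0.23 and its inhibitory relative Ctla4 by 1.40 ± 0.53, 3 of 10 tested, where 7.23% of all genes were higher and 6.67% lower. Icos read 2.38 to 7.51 CPM in S group and 0.79 to 2.54 in O group, so the groups overlapped at their edges. None of 30 signalling genes and of 6 ligands was called, and the adjusted P values of the genes named were 0.225 to 0.310. Between O group and C group Tnfrsf25 was lower by 1.12 ± 0.41 on the log2 scale, and Ripk1, the kinase of the TNF receptor complex, was higher by 0.35 ± 0.16, both with an adjusted P of 0.910.

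In PBMC of S group against C group 18 receptors, 10 ligands, 30 signalling genes and 11 B7 and CD28 family genes were tested. Tnfrsf10b, the TRAIL receptor, was the only one called, higher by 0.45 ± 0.19 with an adjusted P of 0.9999. Of all genes 1.23% were higher and 1.41% lower. Against O group, 5 of 17 receptors tested were higher in S group and 4 lower, where 4.43% of all genes were higher and 7.8% lower, with Ltbr at −0.46 ± 0.11, Tnfrsf18 at 0.39 ± 0.12 and Tnfrsf9 at 0.78 ± 0.26. The ligand Tnfsf8 and the adaptor Traf1 were higher by 0.29 ± 0.09 and 0.30 ± 0.09. Cd80, Vsir and Tab2 were lower, at −0.49, −0.27 and −0.21, and the adjusted P values of the genes named against O group were 0.296 to 0.395.

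Between O group and C group PBMC, 2 of 17 receptors were higher and 3 lower, where 7.56% of all genes were higher and 4.39% lower, with Tnfrsf21 at 0.35 ± 0.10, Tnfrsf18 at −0.38 ± 0.12 and Tnfrsf25 at −0.41 ± 0.13. Among 10 ligands 1 was higher, Tnfsf13b, which encodes BAFF, by 0.47 ± 0.18, and 4 were lower, with Tnfsf11 at −1.08 ± 0.33 and Tnfsf8 at −0.31 ± 0.11. Nfkbib, an inhibitor of NF-kB, was higher by 0.34 ± 0.13, and the adjusted P values of the genes named were 0.337 to 0.379.

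Between the tissues all 17 further receptors tested were lower in platelets with TMM normalization at an adjusted P under 0.05, with a median of −1.66, as were 7 of 9 ligands. The other two ligands were higher, Tnfsf14 (LIGHT) by 2.28 ± 0.25 and Tnfsf12 (TWEAK) by 1.48 ± 0.18, each by more than the shift of the median between the scales. Of the 30 signalling genes 18 were lower in platelets and 4 higher by the same call, where 44.7% of all genes were lower and 36.7% higher, with a median of −0.32 over the list. Among the lower ones were Tnfaip3, an inhibitor of NF-kB signalling, at −4.54 ± 0.31, the NF-kB inhibitor Nfkbia at −1.90 ± 0.20 and the kinase Ikbkb at −1.40 ± 0.08. Among the higher ones were Birc2, Fadd and Cflar, which act at the receptor complex, by 2.42 ± 0.23, 1.45 ± 0.12 and 1.14 ± 0.13 with TMM normalization, the last by less than that shift.

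The genes whose levels most resembled each of the 10 were taken by Pearson's r of log2(CPM + 1) over the 15 libraries of a tissue, a description over libraries that share group, depth and cell makeup. Among 13878 platelet genes Tnfrsf1b went with Mpeg1 (r = 0.981), Unc93b1 (r = 0.975) and Ifngr1 (r = 0.970), Icosl with Ncln (r = 0.975), Adamts10 (r = 0.959) and Tor1b (r = 0.958), and Cd40 with Lpcat1 (r = 0.955), Dus3l (r = 0.949) and Tpra1 (r = 0.942). Cd27 went with Spn (r = 0.962), Itgax (r = 0.948) and Slc17a9 (r = 0.946). Tnfrsf13b and Tnfrsf13c shared Blnk (r = 0.956 and 0.939), a B cell adaptor, beside Tcf3 (r = 0.953) and Rubcnl (r = 0.938) for the first and Spib (r = 0.953) and Traf3ip2 (r = 0.938) for the second. Ltb went with Igkv6-17 (r = 0.937), E4f1 (r = 0.936) and Il2rg (r = 0.932), and Tnfrsf1a with Slc27a4 (r = 0.948), Apobr (r = 0.930) and Slc11a1 (r = 0.927). The least close were those of Tnf, with Csf1 (r = 0.879), Sh2d3c (r = 0.874) and Chsy1 (r = 0.872), and of Cd40lg, with C2cd2 (r = 0.821), Zfp862-ps (r = 0.818) and Ercc2 (r = 0.810).

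Among 15398 PBMC genes Tnf went with Marcksl1 (r = 0.985), Ptgs2 (r = 0.957) and Btg2 (r = 0.947), Cd27 with Thy1 (r = 0.966), Chtop (r = 0.965) and Limd2 (r = 0.963), and Ltb with Ptprcap (r = 0.968), Gimap1 (r = 0.965) and Rasal3 (r = 0.940). Tnfrsf1a went with Ifitm2 (r = 0.964), Slc11a1 (r = 0.960) and Rnf149 (r = 0.954), so that Slc11a1 was named for it in both tissues. Cd40lg went with Il2ra (r = 0.930), Klrc2 (r = 0.924) and Xcl1 (r = 0.919), and Icosl with the B cell gene Cd22 (r = 0.915), Ffar1 (r = 0.896) and Fcrl1 (r = 0.891). Cd40 went with Srpk3 (r = 0.895), Swap70 (r = 0.887) and Chst3 (r = 0.877), and Tnfrsf1b with Naip2 (r = 0.927), Rin2 (r = 0.902) and Sppl2a (r = 0.901). Tnfrsf13b went with Trim5 (r = 0.957), Dtymk (r = 0.944) and BE692007 (r = 0.935), and Tnfrsf13c with Igkc (r = 0.893), Pold1 (r = 0.885) and Ighv3-6 (r = 0.884).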

How the data were processed

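Platelet and PBMC RNA were sequenced in 30 libraries. The authors filtered reads for quality, aligned them (HISAT2), counted them on genes (featureCounts) and deposited raw counts without normalization. The submitters' notes list HISAT2 2.0.5, featureCounts 1.5.0-p3 and mm9. Positions given here are those of GRCm38 (GENCODE M21), which the study's own gene positions also follow, and 54409 of 54532 identifiers had a symbol. Whether the counting used strand is not given in the sources used here. Libraries were grouped by title, because the platelet samples carry PBMC as their cell type.

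Each pair of groups was fitted with edgeR 4.0.16 (filterByExpr, TMM, quasi-likelihood F test, R 4.3.3) and called at an unadjusted P under 0.05, with Benjamini-Hochberg values beside it. The SE is the log2 fold change divided by the square root of F. Tissues were compared over 30 libraries with group as a covariate (adjusted P under 0.05), and the difference of response as an interaction. Ratios to marker sums and exact permutation tests used a pseudocount of 0.5 counts. Scripts were tested on simulated data. The 10 genes, the markers and the lists were chosen with earlier results of these data known. Named genes were the 10, up to 3 per list and comparison with the smallest P under 0.05, and the 3 most alike per gene and tissue; genes named between the tissues were chosen after their values were seen. Same-numbered libraries deviated together in every pair of PBMC S group with C group (r = 0.269 to 0.559) and with O group (r = 0.109 to 0.389), so the replicate number was taken to pair these. Those of PBMC O group with C group also did, at r = 0.0405 to 0.418. The labels and the study's methods differ slightly in the number of mice of some platelet pools. Alternatives were DESeq2 1.42.0, no filter, RLE factors, voom with quality weights (limma 3.58.1), the replicate block, 3 groups in one fit, library totals without scaling factors, the exact test and each library left out; the exact test, the library totals, PBMC without the libraries numbered 4 and the tissue differences with a library left out were added after the data were seen.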

Additional observations from a re-analysis of the deposited data

Results flagged for a closer look

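Of 60 groups of 5 libraries examined for a library apart from the rest (Dixon's criterion of 0.71, which chance passes in about 1 group in 20), 4 held one. Platelet S group replicate 5 stood apart at 45.5 CPM of Icosl and 19.08 CPM of Cd27, and that library also held the highest sum of B cell markers, 1620 CPM. Replicate 4 of PBMC stood apart for Tnf in S group, at 60.79 CPM, and in O group, at 110.2 CPM, and these libraries had 3635 and 5590 CPM of neutrophil markers, while replicate 1 of O group PBMC had 7097 CPM of these markers and 5.70 CPM of Tnf. The part of these cells in the levels was not tested.

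The response differed between platelets and PBMC, by the test of the difference itself at an unadjusted P under 0.05, for S group against C group in Cd40lg (1.58 on the log2 scale), Icosl (0.63) and Cd40 (0.63). For S group against O group it differed in Icosl (0.92) and Tnfrsf1b (1.02), and for O group against C group in Cd40lg (0.99). Each is the platelet minus the PBMC log2 fold change, and none passed the adjustment over all genes. Icosl, Cd40 and Tnfrsf1b belong to the panel that the study picked from these platelet libraries, so their differences are no independent evidence.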

How the results depend on the processing

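Differences between groups rested on pools of unequal numbers of mice, on unadjusted P values and, for Cd40lg and Tnf in platelets, on under 60 reads per library, which limits the precision for these genes. With an adjusted P under 0.05 the numbers of genes called became 0 in platelets against both groups, in PBMC S group against O group and O group against C group, and in all 3 differences between tissues. For platelet S group against C group the main number of 5 became 8 with voom and quality weights, 3 with 3 groups in one fit and 3 with the exact permutation test. The replicate block gave 2 for platelet O group against C group (Icosl and Tnfrsf13c) and 1 for PBMC S group against C group, where the fit without a filter also gave 1. It moved no other number between groups of a tissue by over 1.5 times. Same-numbered platelet libraries did not all deviate together, whereas those of PBMC O group and C group did, at r = 0.0405 to 0.418. In the tissue difference of S group against C group the block ended the call of Cd40 and added Cd27 and Tnfrsf1b. PBMC S group against O group gave 2 without the libraries numbered 4, and the tissue difference of S group against O group gave 5 without a filter.

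With each library left out, the numbers called were 3 to 6 for platelet S group against C group (3 without C group replicates 2 or 5 or S group replicate 5), 4 to 7 against O group and 0 to 1 for O group against C group (1 without O group replicate 5). In PBMC they were 0 to 1 for S group against C group (1 without C group replicates 1 or 3 or S group replicate 3), 2 to 6 against O group (2 without S group replicates 2 or 5 or O group replicate 1) and 2 to 6 for O group against C group (6 without O group replicate 5). The differences between tissues gave 1 to 5 for S group against C group (1 without platelet C group replicates 2 or 3 or S group replicate 5, or PBMC C group replicates 1 or 3 or S group replicates 2 or 3), 1 to 5 for S group against O group (1 without platelet S group replicate 5 or O group replicate 2) and 0 to 2 for O group against C group (0 without platelet C group replicates 1 or 2 or O group replicate 4, or PBMC C group replicate 5). All 10 genes stayed called between platelets and PBMC in each of these fits, but library totals without scaling factors turned Tnfrsf13b to −0.6771 and Tnfrsf13c to −0.7808.

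The other turns of sign concern log2 values that were not called. For platelet O group against C group Tnfrsf1a became −0.0075 with voom and −0.0121 with the replicate block. For PBMC S group against C group Tnfrsf13b became −0.0078 and −0.0075 with DESeq2 on filtered and all genes, −0.0077 without a filter, −0.0079 with RLE factors, −0.0076 with voom, −0.0088 with 3 groups in one fit, −0.0098 in the exact test and −0.0222 without the libraries numbered 4. There Cd27 became −0.0499 with voom, −0.0108 without the libraries numbered 4 and −0.00059 in the exact test, and Tnfrsf1b 0.0114 and 0.0256 under the first and second of these. For PBMC O group against C group Icosl became −0.0183 without a filter, −0.0211 without the libraries numbered 4 and −0.000199 in the exact test, and with voom Cd40 became 0.0152 and Tnfrsf13c 0.0095. Among the tissue differences Tnf for S group against C group became 0.0213 without a filter and 0.3508 with the replicate block, and for O group against C group Cd40 became −0.0383 with RLE factors and −0.0363 without a filter, Tnfrsf13b −0.0500 and −0.0383, and Cd27 0.0271 with the block.

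Leaving out single libraries also turned the sign of these uncalled values, given as lowest to highest. In platelets they ran from −0.0418 to 0.0999 (Tnfrsf13c, S group against C group), −0.0964 to 0.1916 (Tnfrsf13b, S group against O group) and, for O group against C group, −0.2296 to 0.0866 (Cd40), −0.2911 to 0.2654 (Tnfrsf1a) and −0.4799 to 0.1822 (Tnfrsf1b). In PBMC of S group against C group they ran from −0.1218 to 0.0596 (Cd40lg), −0.0318 to 1.382 (Tnf), −0.1346 to 0.1203 (Cd27), −0.0623 to 0.0635 (Tnfrsf13b), −0.0061 to 0.1171 (Tnfrsf1a) and −0.1032 to 0.0222 (Tnfrsf1b). PBMC S group against O group gave −1.745 to 0.6742 (Tnf), and O group against C group −0.0579 to 0.0587 (Icosl), −0.1286 to 0.0245 (Cd40) and −0.0928 to 0.0383 (Tnfrsf13c). The tissue differences ran from −0.407 to 1.004 (Tnf, S group against C group), −0.3194 to 2.077 (Tnf), −0.3491 to 0.0906 (Tnfrsf13b) and −0.0719 to 0.3441 (Tnfrsf13c) for S group against O group, and for O group against C group −1.698 to 0.2605 (Tnf), −0.2837 to 0.0620 (Ltb), −0.2674 to 0.2415 (Cd40), −0.2336 to 0.131 (Cd27), −0.2156 to 0.1911 (Tnfrsf13b) and −0.5948 to 0.0383 (Tnfrsf1b).

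Ratios to marker sums behaved alike where none had passed the test. In platelets against O group they ran from −0.3052 to 0.527 (Tnf) and −0.3462 to 0.3203 (Tnfrsf1a). In PBMC against C group they ran from −0.1518 to 0.0949 (Cd40lg), −0.0114 to 1.033 (Tnf), −0.0665 to 0.0180 (Cd40), −0.0545 to 0.0692 (Cd27), −0.0053 to 0.3173 (Tnfrsf1a) and −0.0013 to 0.1969 (Tnfrsf1b), and against O group from −0.0118 to 0.2193 (Cd40lg), −0.7429 to 0.7398 (Tnf), −0.0496 to 0.0928 (Ltb), −0.0148 to 0.124 (Cd27), −0.1331 to 0.0401 (Tnfrsf13b), −0.0551 to 0.0938 (Tnfrsf13c) and −0.1942 to 0.182 (Tnfrsf1a). The cause of these changes was not tested.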
